A study of Bos taurus with 22 samples.

Results

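Of the 27570 genes in the count table of bovine jejunal mucosa, 10 were followed here as genes of T cells and intraepithelial lymphocytes, chosen by name: CD3D, CD3E, CD3G, CD4, CD8A, CD8B, ITGAE, PRF1, GZMB and KLRK1. Each name matched 1 gene identifier, and all 10 genes passed the filter on low counts in every comparison. The RNA came from 22 Holstein steers aged 10 to 12 months, and each library was from a separate steer. The study asked how the jejunal transcriptome responds to casein delivered beyond the rumen and to GLP-2 (glucagon-like peptide 2), a gut hormone that stimulates mucosal growth. Every steer, the controls included, received raw corn starch into the abomasum at 3.94 g per kg body weight and day for 7 d. Control steers (n = 5) were additionally infused with water and injected with the vehicle, which contained bovine serum albumin (BSA). GLP-2 steers (n = 5) were infused with water and injected with GLP-2 at 100 µg per kg and day. Casein steers (n = 6) were infused with sodium caseinate at 1.30 g per kg and day and injected with vehicle, and casein + GLP-2 steers (n = 6) received both the caseinate and the hormone. The 11 steers given GLP-2 with either infusion are called GLP-2 injected and the other 11 BSA steers. All were young castrated males of a dairy breed with an abomasal catheter, and mucosa was scraped from a mid-jejunal segment after slaughter.

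The T cell receptor reaches the cell surface only with the CD3 chains, which carry its signal into the cell, so CD3D, CD3E and CD3G transcripts are made by T cells as a whole. CD4 and CD8 are coreceptors that bind class II and class I histocompatibility molecules, and CD4 is also made by some myeloid cells. Intraepithelial lymphocytes lie between the enterocytes. Many of them carry CD8, hold on to E-cadherin of the enterocytes through the integrin αE chain encoded by ITGAE, and store perforin (PRF1) and granzymes such as granzyme B (GZMB) with which they kill target cells. KLRK1 encodes NKG2D, an activating receptor of cytotoxic T cells and natural killer cells that binds stress ligands on epithelium.

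Depth and tissue composition differed among libraries. The paper reports that RNA integrity varied among samples, but values per steer were not at hand and its part was not tested. Library totals ranged from 8809666 to 28447810 counts. Villus enterocyte markers were present in every library, as the label jejunal mucosa requires, with a summed level of 12 markers of 2168 to 49150 CPM (counts scaled to library size) in the 11 BSA steers and 16680 to 66370 CPM in the 11 GLP-2 injected steers. Markers of B cell follicles stood apart in 4 libraries, control replicates 1, 3 and 5 and casein replicate 3. Their follicle score, the mean log2 CPM of the follicle markers, was at least 5.86, against at most 3.63 in the other libraries. All 4 were from BSA steers, so comparisons of all GLP-2 injected with all BSA steers were repeated without them. Contrasts among the 4 treatments, ratios within an infusion and correlations were not. In bulk mucosa, fewer T cells and less of a transcript per T cell cannot be told apart.

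The CD3 genes had the highest levels per length and PRF1 the lowest. In FPKM, which divides by gene length and library size (mean ± SD, n = 22), CD3E was at 129 ± 43.4, CD3G at 106 ± 45.3 and CD3D at 103 ± 45.6. They were followed by GZMB at 50.4 ± 36.8, ITGAE at 40.6 ± 19.1, CD8A at 39.4 ± 18.2, KLRK1 at 24.2 ± 13.5, CD8B at 24.0 ± 11.4 and CD4 at 20.7 ± 7.88. PRF1 was at 10.2 ± 4.73 FPKM. Along this order, neighbouring genes differed by more than the larger of their SDs only from CD3D to GZMB and from CD4 to PRF1. For the other neighbours the gap between means lay within the larger SD. That yardstick ignores that both genes were measured in the same steers, so it does not show their levels to be alike. CD8A, for example, was above KLRK1 in every steer, with 12.4 against 4.89 FPKM in control replicate 3.

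The genes for the CD3 chains are neighbours on chromosome 15 of the ARS-UCD1.2 build, with CD3E on the plus strand at chr15:29004371-29015210, CD3D on the minus strand at chr15:29019465-29023621 and CD3G on the plus strand at chr15:29025582-29032726. CD8B at chr11:48044725-48064460 and CD8A at chr11:48118023-48125256 are also close to each other and share the plus strand. CD4 lies at chr5:103631360-103654878 on the minus strand and KLRK1 at chr5:99603137-99613790 on the plus strand. ITGAE lies at chr19:24392539-24437306, GZMB at chr21:34876603-34880233 and PRF1 at chr28:26783286-26788539, all on the minus strand. The deposited table annotates all 10 as protein coding and gives the whole gene, so no exon or UTR was resolved. GZMB and KLRK1 belong to gene families with similar members, between which the counting could have divided or dropped reads, and their levels are uncertain to that extent.

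The CD3 genes were detected in every steer, with overlapping levels under all treatments. Mean CD3E was 426 CPM in control, 287 in GLP-2, 345 in casein and 350 in casein + GLP-2 steers. CD3E was at 536, 634, 271, 371 and 319 CPM in control replicates 1 to 5 and at 229, 339, 327, 248 and 294 CPM in GLP-2 replicates 1, 3, 4, 5 and 6. With casein it ranged from 162 to 571 CPM with a median of 339, and with casein + GLP-2 from 281 to 504 CPM with a median of 328. The ranges of the 4 treatments overlapped, with control replicate 2 the highest of all steers, casein replicate 2 next to it and casein replicate 1 the lowest. CD3D ranged from 35.0 to 320.2 CPM over the 22 steers and CD3G from 25.4 to 136 CPM, with their lowest values in casein replicate 1 for each.

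**Figure D1:**
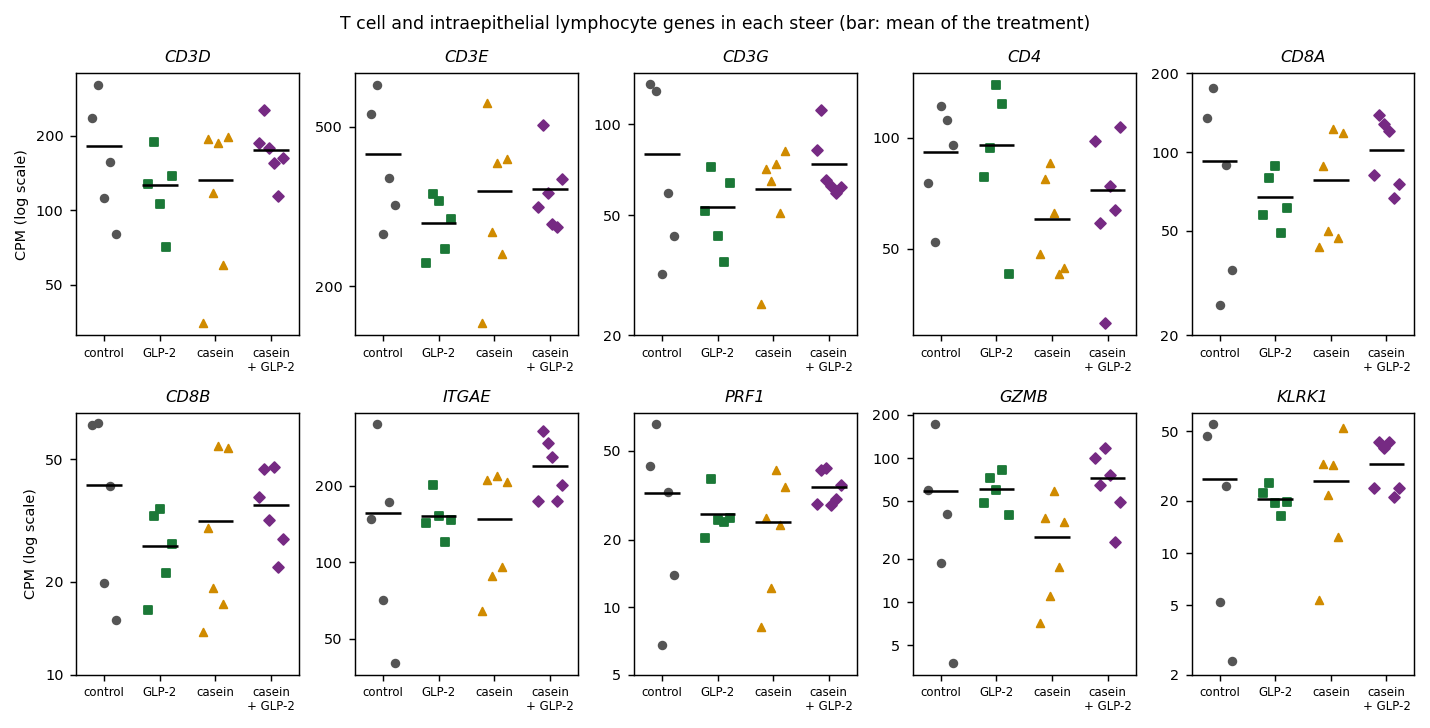
Level of each of the 10 genes in every steer, as TMM-normalized CPM on a log axis that differs between panels, by treatment (control and GLP-2 n = 5, casein and casein + GLP-2 n = 6). Points are steers and bars are arithmetic means of the treatment. The treatments overlap for every gene, and control steers span the widest range for GZMB, from 3.80 to 171 CPM.

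The coreceptors differed from each other in which steers were high. CD4 was at 75.3, 52.0, 122, 111 and 95.6 CPM in the control steers and at 78.0, 93.7, 139, 123 and 42.8 CPM in the GLP-2 steers. With casein it ranged from 42.8 to 85.2 CPM (median 55.5), and with casein + GLP-2 from 31.4 to 107 CPM (median 68.7). Most water-infused steers were above the medians of the casein-infused groups, but the ranges overlapped. CD8A was at 135, 176, 26.2, 88.9 and 35.4 CPM in the control steers and at 57.6, 79.6, 88.3, 49.2 and 61.1 CPM in the GLP-2 steers. Control replicate 2 had the highest CD8A and the lowest CD4 of its treatment, and control replicate 3 the reverse. CD8A ranged from 43.5 to 123 CPM with casein and from 67.1 to 138 CPM with casein + GLP-2. CD8B, the other chain of the CD8 heterodimer, ranged from 13.8 to 65.7 CPM over all steers.

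ITGAE, the integrin chain of epithelial retention, was at 147, 347, 70.8, 173 and 40.3 CPM in the control steers. In the GLP-2 steers it was at 143, 200.4, 151, 119.7 and 146 CPM. It ranged from 64.4 to 217 CPM with casein (median 152) and from 174 to 327 CPM with casein + GLP-2 (median 229). The lowest casein + GLP-2 steer was above 3 of the 6 casein steers, while the control steers held both the lowest and the highest value of the study. Over the 11 GLP-2 injected steers the lowest value was 119.7 CPM, and over the 11 BSA injected steers it was 40.3 CPM.

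GZMB, which encodes the protease granzyme B, varied most. It was at 59.5, 171, 18.7, 41.1 and 3.80 CPM in the control steers and at 48.8, 73.0, 59.7, 82.0 and 40.0 CPM in the GLP-2 steers. With casein it ranged from 7.15 to 59.0 CPM (median 26.7) and with casein + GLP-2 from 26.2 to 117 CPM (median 70.6). The BSA steers held both the highest and the lowest values, and the GLP-2 injected steers lay between them. PRF1, the pore-forming partner of the granzymes, ranged from 6.75 to 66.3 CPM in BSA steers and from 20.4 to 42.1 CPM in GLP-2 injected steers. KLRK1 was at 46.9, 55.0, 5.26, 24.4 and 2.40 CPM in the control steers and at 22.1, 25.1, 19.3, 16.3 and 19.5 CPM in the GLP-2 steers. Its casein steers ranged from 5.40 to 52.4 CPM and its casein + GLP-2 steers from 21.1 to 43.5 CPM, so that KLRK1, like GZMB, had its extremes in BSA steers.

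Exogenous GLP-2 administration was not found to change the level of any of the 10 genes. With the 11 GLP-2 injected steers set against the 11 BSA steers in edgeR's quasi-likelihood test, 0 of 10 genes passed an adjusted p of 0.05 (Benjamini-Hochberg over 13928 genes), whereas 13.5% of all tested genes did. At an unadjusted p of 0.05, again 0 of 10 passed, against 34.6% of all tested genes. The log2 fold changes of the 10 genes had a median of 0.03, with 6 above 0, and the median over all tested genes was 0.01.

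The log2 fold change with GLP-2 was -0.01 for CD3D (SE 0.286, edgeR adjusted p = 0.988), -0.25 for CD3E (SE 0.199, adjusted p = 0.385) and -0.11 for CD3G (SE 0.249, adjusted p = 0.781). It was 0.15 for CD4 (SE 0.237), 0.03 for CD8A (SE 0.283) and -0.19 for CD8B (SE 0.283), with edgeR adjusted p from 0.643 for CD8B to 0.956 for CD8A. The widest departures were ITGAE at 0.40 (SE 0.288, edgeR adjusted p = 0.321) and GZMB at 0.68 (SE 0.449, adjusted p = 0.280). PRF1 was at 0.15 and KLRK1 at 0.04. The 95% interval on the log2 scale reached from -0.24 to 1.61 for GZMB, from -0.77 to 0.85 for KLRK1 and from -0.78 to 0.39 for CD8B, so changes within these limits were not excluded for these genes.

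**Figure D2:**
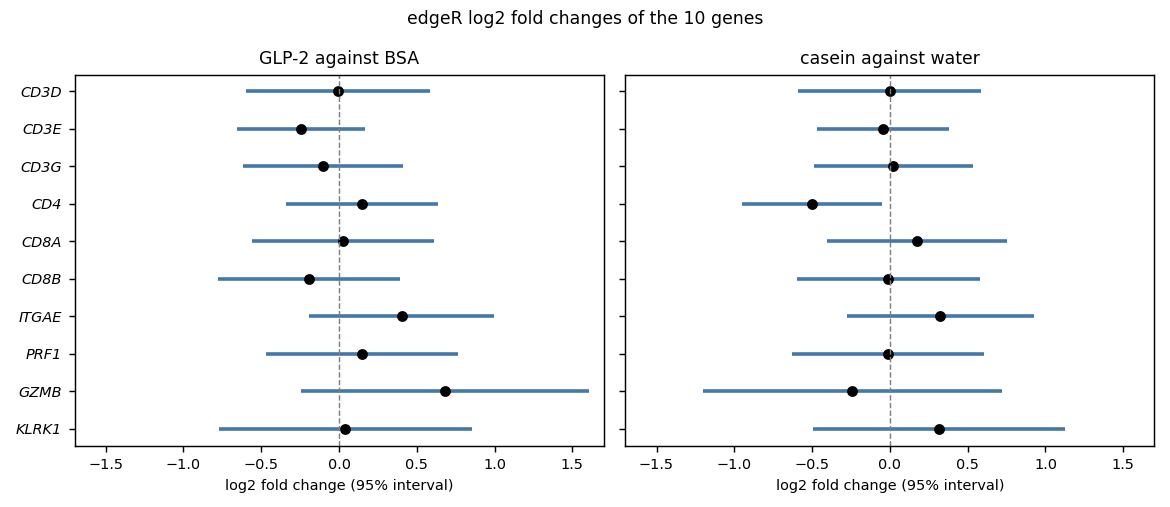
Log2 fold changes of the 10 genes (points) with 95% intervals (lines) from edgeR, for the 11 GLP-2 injected against the 11 BSA steers (left) and the 12 casein-infused against the 10 water-infused steers (right). Every interval on the left crosses 0, the widest being GZMB with an estimate of 0.68, and on the right only that of CD4, at -0.50, does not.

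GZMB was called only when 1 control steer was left out. Without control replicate 2, which had the highest GZMB, its log2 fold change was 1.21 with an edgeR adjusted p of 0.0275, and it was the only one of the 10 genes called, in a fit that called 25% of all genes. ITGAE was then at 0.61 (adjusted p = 0.0958). With the replicate block in the model, GZMB was at 1.22 and ITGAE at 0.63 (edgeR adjusted p = 0.0793 and 0.0801) while 4.95% of all genes were called, and limma on log2(FPKM + 1) gave GZMB 1.19 (adjusted p = 0.0631) with 15% of all genes called. Neither of these called any of the 10 genes, nor did the DESeq2 Wald test, which called 22.4% of all genes. Without the 4 steers rich in follicle markers, GZMB was at 0.35 and ITGAE at 0.08, the smallest edgeR adjusted p of the 10 was 0.475, and 0% of all genes were called.

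Postruminal casein infusion was not found to change the 10 genes either. Between the 12 casein-infused and the 10 water-infused steers, 0 of 10 genes passed the adjusted threshold in edgeR's quasi-likelihood test, as did 0% of 14096 tested genes. CD4 was lower with casein by a log2 fold change of -0.50 (SE 0.218) with an unadjusted p of 0.0308 and an adjusted p of 0.994. It was the only member with an unadjusted p below 0.05, against 3.36% of all genes. Mean CD4 was 66.0 ± 23.0 CPM (SD, n = 12) with casein and 93.2 ± 31.5 CPM (SD, n = 10) with water. The other 9 genes had log2 fold changes from -0.24 for GZMB to 0.32 for ITGAE, with adjusted p from 0.994 to 1.

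Among the 4 treatments, fitted together over 15086 genes, none of the 10 genes was called in any contrast of edgeR's quasi-likelihood test. That test called 0% of all genes in each. The DESeq2 Wald test called none of the 10 genes either. Of all genes, it called 891 between casein + GLP-2 and casein steers and 289 between GLP-2 and control steers. In the remaining contrasts it called 2 to 10. Its lowest adjusted p among the 10 genes was 0.092, between casein + GLP-2 and casein steers, a tendency at the 0.1 level. These contrasts share treatments, and 3 of them share the control steers, so their values are given side by side. The median log2 fold change over all genes lay between -0.03 and 0.04 in each. Because the genes other than CD4 varied together over steers (median r = 0.82), a sign they share is not a count of separate results. For GLP-2 against control, the log2 fold changes of the 10 genes had a median of -0.42 and ran from -0.65 for CD8B to 0.06 for CD4. None had an unadjusted p below 0.05, against 13.9% of all genes, and the smallest was 0.0619 for CD3E (log2 fold change -0.57, edgeR adjusted p = 0.378). For casein + GLP-2 against casein, all 10 values were above 0, from 0.02 for CD3E to 1.36 for GZMB. GZMB (SE 0.600, edgeR unadjusted p = 0.0330 and adjusted p = 0.179) alone of the 10 genes had an unadjusted value below 0.05, against 24.1% of all genes. Mean GZMB was 72.1 ± 33.0 CPM with casein + GLP-2 and 28.1 ± 19.8 CPM with casein (SD, n = 6 each).

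Casein against control gave 10 values below 0, from -1.07 for GZMB to -0.04 for KLRK1, with 0 of 10 unadjusted p below 0.05 against 5.66% of all genes. Casein + GLP-2 against GLP-2 gave 9 values above 0, with CD4 at -0.40 as the exception, and again 0 of 10 unadjusted p below 0.05 against 2.64% of all genes. The casein × GLP-2 interaction was above 0 for all 10 genes, from 0.20 for CD4 to 1.32 for GZMB on the log2 scale. It too had 0 of 10 unadjusted p below 0.05 against 4.28% of all genes, and the smallest was 0.0892 for CD3G (interaction 0.85, SE 0.480, edgeR adjusted p = 0.996). These unadjusted counts depended on the model. With the follicle score as a term, 8 of 10 genes reached that level for the interaction (lowest edgeR adjusted p = 0.227). GLP-2 against control then had 7 (lowest adjusted p = 0.715), and the remaining contrasts had 0 to 3. Leaving out control replicate 3 or control replicate 5 gave 3 genes for the interaction. None of the 10 genes was called in these fits.

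The 10 genes varied more over the BSA steers than over the GLP-2 injected steers, with CD4 as the exception. On the log2 CPM scale the SD of GZMB was 1.55 in BSA steers and 0.61 in GLP-2 injected steers (n = 11 each). That of KLRK1 was 1.51 and 0.50, that of PRF1 1.05 and 0.34, and that of ITGAE 0.94 and 0.46. CD3E had SDs of 0.59 and 0.30, and CD4 had 0.53 and 0.65. The SD was larger in BSA steers for 9 of the 10 genes, but also for 85.6% of the 13928 genes tested, so this was not particular to the lymphocyte genes. Without the 4 follicle-rich steers it was still larger for 9 of 10 genes and for 68.2% of all genes. The spread was not tested.

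A few steers set the extremes. Casein replicate 1 was among the 4 lowest steers for 9 of the 10 genes, control replicate 5 for 8 and casein replicate 5 for 7. At the other end, control replicate 2 was among the 4 highest for 9 genes and control replicate 1 for 7. Between the highest and the lowest steer the CPM differed 45.0-fold for GZMB, 22.9-fold for KLRK1 and 9.82-fold for PRF1, but 3.92-fold for CD3E and 4.42-fold for CD4. No steer stood apart from its treatment by Dixon's test in any of the 40 combinations of gene and treatment.

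Over steers, 9 of the genes varied together, and CD4 did not go with them. After the treatment means were removed from log2 CPM, the Pearson correlation over the 22 steers was between 0.66 and 0.92 for the 36 pairs that leave out CD4, with a median of 0.82. For CD4 with each of the other 9 genes it was between -0.34 and -0.09. The highest values, 0.92 after rounding, were those of ITGAE with KLRK1 and of CD8A with CD8B, whose products form a heterodimer. All these values come from the same libraries and share their scaling.

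**Figure D3:**
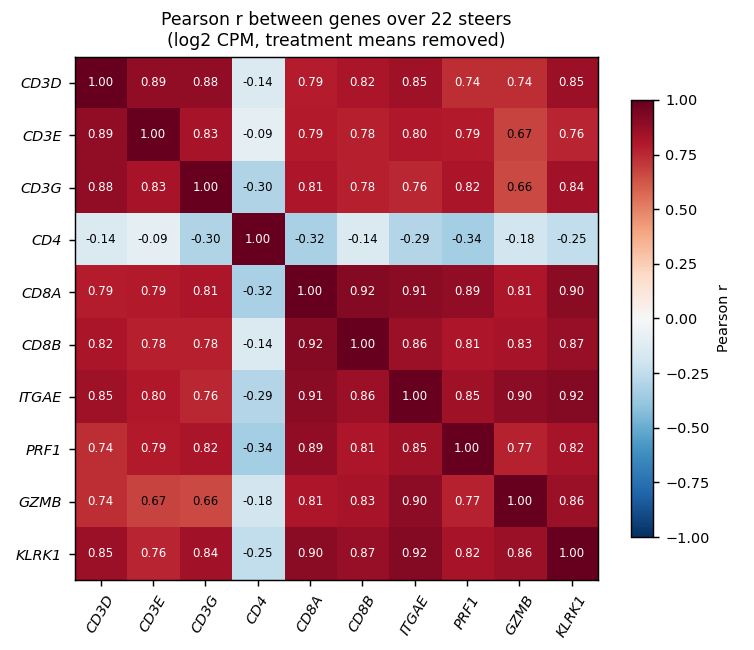
Pearson correlation between the 10 genes over 22 steers, from log2 CPM with treatment means removed. Each cell gives the value of a pair of genes, and the row and column of CD4 hold values from -0.34 to -0.09 while all other pairs lie between 0.66 and 0.92.

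Tests were run for CD3E as the T cell reference, in a family of 12 relations by permutation within treatments (100000 resamples, 2-sided, Benjamini-Hochberg over the family). CD3E correlated with ITGAE at r = 0.80 (permutation p = 0.00024, adjusted p = 0.00060) and Spearman's rho = 0.84 (permutation p = 0.00047, adjusted p = 0.00104), with r = 0.84 after the 2 outermost steers were left out. With GZMB, r was 0.67 (permutation p = 0.00361, adjusted p = 0.00542) and rho 0.72 (permutation p = 0.00320, adjusted p = 0.00480), with r = 0.68 after leaving out 2 steers. Within the GLP-2 injected steers alone the r with GZMB was 0.13, and within the BSA steers 0.78. With CD4, r was -0.09 (permutation p = 0.666, adjusted p = 0.726) and rho -0.09 (permutation p = 0.687, adjusted p = 0.749), with r = -0.11 after leaving out 2 steers. CD3E was not related to library total (r = -0.03, permutation p = 0.914, rho = -0.0017, permutation p = 0.996, and r = 0.03 without 2 steers).

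The genes whose levels over 22 steers were most like those of the members were mostly lymphocyte genes. By the same correlation, ranked over 13236 genes other than the members, CD3E was closest to SLA2 (r = 0.91), an adaptor protein of lymphocytes, CD247 (r = 0.89), the zeta chain of the receptor complex, and LCP2 (r = 0.89), an adaptor in receptor signalling. ITGAE was closest to CD244 (r = 0.98), a receptor of natural killer and cytotoxic T cells, then to SLA2 (r = 0.95) and GZMA (r = 0.95), which encodes granzyme A. KLRK1 was closest to CD244 (r = 0.93), CD96 (r = 0.91) and another gene named gzmA (r = 0.91). GZMB differed, in that its nearest genes were ABO (r = 0.91), a glycosyltransferase, and SCNN1A (r = 0.90), an epithelial sodium channel subunit, with CD244 (r = 0.90) after them.

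Relative to CD3E, the transcripts of ITGAE and GZMB were higher in GLP-2 injected steers. The log2 ratio of ITGAE to CD3E was -1.86, -0.87, -1.93, -1.10 and -2.98 in the control steers and -0.68, -0.76, -1.11, -1.05 and -1.005 in the GLP-2 steers. It ranged from -1.63 to -0.90 with casein and from -0.88 to -0.15 with casein + GLP-2. All 11 GLP-2 injected steers were above the median of the BSA steers, 7 of them above every BSA steer, and in the casein-infused steers the 2 injections did not overlap. Over all steers the mean was -0.73 ± 0.31 with GLP-2 and -1.49 ± 0.61 with BSA (SD, n = 11 each). The difference of 0.76, or 1.69-fold, had a 2-sided permutation p of 0.00028 (100000 resamples) and an adjusted p of 0.0056 over the 20 ratio tests made.

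The log2 ratio of GZMB to CD3E was -3.17, -1.89, -3.85, -3.17 and -6.34 in the control steers and -2.23, -2.21, -2.45, -1.59 and -2.87 in the GLP-2 steers. It ranged from -4.60 to -2.78 with casein and from -3.42 to -1.54 with casein + GLP-2. The groups overlapped, with 3 of the 11 GLP-2 injected steers above every BSA steer and all 11 above the BSA median. The means were -2.34 ± 0.64 with GLP-2 and -3.77 ± 1.14 with BSA (SD, n = 11 each). They differed by 1.43, or 2.69-fold (permutation p = 0.0010, adjusted p = 0.0100). Most of this difference lay in GZMB itself, whose mean log2 CPM was 5.96 with GLP-2 and 4.70 with BSA (CD3E 8.30 and 8.47). For ITGAE the mean log2 CPM was 7.57 and 6.98. The edgeR log2 fold change of GZMB, 0.68, compares mean counts, whereas the ratio compares means of logs.

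**Figure D4:**
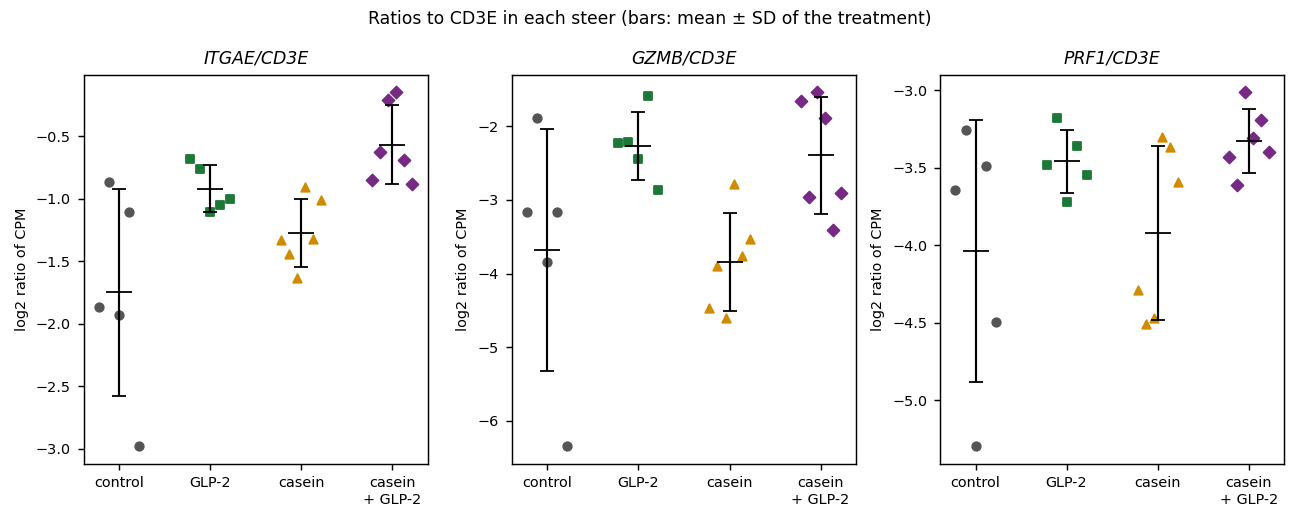
Log2 ratio of the CPM of ITGAE, GZMB and PRF1 to the CPM of CD3E in each steer (points), with the mean ± SD of each treatment (bars, control and GLP-2 n = 5, casein and casein + GLP-2 n = 6). The GLP-2 injected groups lie higher for ITGAE and GZMB, with means over both infusions of -0.73 and -2.34 against -1.49 and -3.77 with BSA, and the control steers spread most.

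The other ratios did not pass. PRF1 to CD3E was higher by 0.59 with GLP-2, with a permutation p of 0.0102 and an adjusted p of 0.0683, a tendency at the 0.1 level. Without the 4 follicle-rich steers it was higher by 0.30 (permutation p = 0.0968, adjusted p = 0.433). KLRK1, CD8A, CD3D, CD3G and CD4 to CD3E differed by 0.67, 0.36, 0.32, 0.17 and 0.29 (adjusted permutation p from 0.217 for KLRK1, CD8A and CD3D to 0.471 for CD4). CD8B to CD8A differed by -0.22 and CD4 to CD8A by -0.06 (adjusted permutation p = 0.238 and 0.910). With casein against water none of the 10 ratios passed, and the lowest adjusted permutation p was 0.217, for CD4 to CD8A at -0.77 and CD8B to CD8A at -0.24.

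Within each infusion the differences in ITGAE and GZMB to CD3E were of similar size, but this did not hold for every ratio. CD3D to CD3E differed by 0.09 with water and 0.52 with casein, and CD4 to CD8A by 0.15 and -0.25. ITGAE to CD3E differed by 0.83 between GLP-2 and control (exact permutation p = 0.0635, adjusted p = 0.254) and by 0.70 between casein + GLP-2 and casein (exact permutation p = 0.00216, adjusted p = 0.0433). GZMB to CD3E differed by 1.41 (exact permutation p = 0.0873, adjusted p = 0.291) and 1.44 (exact permutation p = 0.0130, adjusted p = 0.130). Adjustment was over the 20 tests within infusions, which were added after the pooled values had been seen.

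Markers of the make-up of the mucosa also differed between GLP-2 injected and BSA steers. The summed CPM of 15 follicle markers ran from 135.6 to 2631 in BSA steers and from 106.5 to 160.3 in GLP-2 injected steers, and 12 of the 13 tested follicle markers were lower with GLP-2 in edgeR's quasi-likelihood test, against 8.37% of all tested genes. CXCL13 and CR2 were among them, with log2 fold changes of -7.76 and -5.68. CXCL13, a chemokine of follicles, was close to 0 in GLP-2 injected steers at 0.472 ± 0.629 CPM (SD, n = 11). Of the 12 villus enterocyte markers, 3 were higher with GLP-2, against 5.13% of all tested genes, among them the glucose transporter gene SLC5A1 (log2 fold change 1.58, SE 0.461, edgeR adjusted p = 0.0314). SLC5A1 was no longer called with the replicate block (1.69, edgeR adjusted p = 0.0509). Without the 4 follicle-rich steers all of these marker calls were lost, with log2 fold changes of -3.36 for CXCL13, -2.51 for CR2 and 1.19 for SLC5A1 (edgeR adjusted p = 0.320, 0.320 and 0.337). In the same 18 steers (11 GLP-2 injected and 7 BSA), ITGAE to CD3E differed by 0.41 (permutation p = 0.00769) and GZMB to CD3E by 1.02 (permutation p = 0.0111). Each had an adjusted p of 0.111. Of the control steers only replicates 2 and 4 were left, so the 7 BSA steers were mostly casein-infused. Leaving out steers also lowered the power of these comparisons. With the follicle score as a term the differences were 0.27 and 0.67 (adjusted permutation p = 0.442 for each). With the villus enterocyte score as a term they were 0.30 and 0.53 (adjusted permutation p = 0.278 and 0.280). The calls therefore did not hold once these values were taken into account, and since the scores themselves moved with GLP-2, their part in the ratios cannot be told apart from that of the hormone.

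Over steers, ITGAE and GZMB followed the enterocyte score closely. In 8 relations added after the first values had been seen, with treatment means removed, ITGAE correlated with the enterocyte score at r = 0.83 (permutation p = 0.00046, adjusted p = 0.00184) and rho = 0.76 (permutation p = 0.00144, adjusted p = 0.00901), with r = 0.70 without the 2 outermost steers. GZMB did so at r = 0.81 (permutation p = 0.00044, adjusted p = 0.00184) and rho = 0.70 (permutation p = 0.00338, adjusted p = 0.00901), with r = 0.66 without those steers. Within the 11 BSA steers r was 0.91 for ITGAE and 0.89 for GZMB, and within the 11 GLP-2 injected steers, whose scores spanned less, it was 0.36 for each. CD8A had r = 0.69 with the enterocyte score (permutation p = 0.0127, adjusted p = 0.0240) and rho = 0.64 (permutation p = 0.0141, adjusted p = 0.0230). Its r was 0.55 without the 2 outermost steers. CD3E had r = 0.58 with the enterocyte score (permutation p = 0.0256, adjusted p = 0.0341) and rho = 0.56 (permutation p = 0.0296, adjusted p = 0.0395), with r = 0.50 without the 2 outermost steers. CD4 went the other way, at r = -0.38 (permutation p = 0.0674, adjusted p = 0.0674) and rho = -0.46 (permutation p = 0.0331, adjusted p = 0.0441), with r = -0.32 without those 2 steers.

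**Figure D5:**
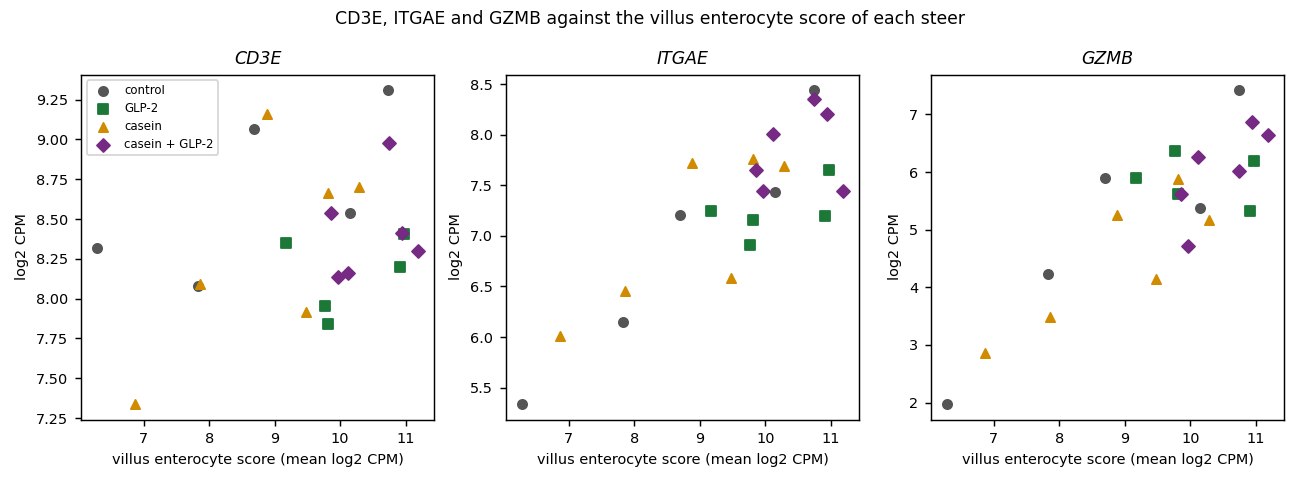
Log2 CPM of CD3E, ITGAE and GZMB in each steer against its villus enterocyte score, the mean log2 CPM of 12 markers, with the treatments as colours and shapes and treatment means left in. ITGAE and GZMB are lowest in the BSA steers of low score, and with treatment means removed their r with the score is 0.83 and 0.81, against 0.58 for CD3E.

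With the follicle score the same genes had values below 0. ITGAE had r = -0.70 (permutation p = 0.00975, adjusted p = 0.0240) and rho = -0.71 (permutation p = 0.00283, adjusted p = 0.00901), with r = -0.63 without the 2 outermost steers. GZMB had r = -0.67 (permutation p = 0.0178, adjusted p = 0.0240) and rho = -0.62 (permutation p = 0.0144, adjusted p = 0.0230), with r = -0.58 without them. CD8A had r = -0.64 (permutation p = 0.0235, adjusted p = 0.0268) and rho = -0.56 (permutation p = 0.0392, adjusted p = 0.0448). Its r was -0.59 without the 2 outermost steers. On log2(FPKM + 1) its r was -0.61, with an adjusted permutation p of 0.0502. CD4 was above 0 at r = 0.44 (permutation p = 0.0180, adjusted p = 0.0240) and rho = 0.42 (permutation p = 0.0453, adjusted p = 0.0453). Its r fell to 0.24 without casein replicate 3 and control replicate 2, so its size depended on them. Within the 11 GLP-2 injected steers, which include neither, r was 0.40, and within the 11 BSA steers 0.64. CD3E had r = -0.47 (permutation p = 0.111, adjusted p = 0.134) and rho = -0.49 (permutation p = 0.0579, adjusted p = 0.0695), with r = -0.39 without the same 2 steers.

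Other genes of T cells and their partners were few among the genes changed by GLP-2. Of 89 tested genes in 4 wider lists, 7 passed the adjusted threshold in edgeR's quasi-likelihood test, or 7.87% against 13.5% of all tested genes. Of these, 6 were lower (against 8.37% of all genes) and 1 was higher (against 5.13%), and the median log2 fold change of the 89 genes was -0.04. Among 30 genes of T cell signalling, 5 were lower, a larger share than the 8.37% of all genes, and none was higher (against 5.13%). CD27, a costimulatory receptor of resting lymphocytes, had a mean of 16.1 ± 4.31 CPM in GLP-2 injected steers and of 40.3 ± 27.1 CPM in BSA steers (SD, log2 fold change -1.34, SE 0.290, edgeR adjusted p = 0.0189). SIT1, an adaptor that interacts with signalling phosphatases, was at 23.3 ± 5.82 and 52.6 ± 27.3 CPM (log2 fold change -1.18, SE 0.229, edgeR adjusted p = 0.0186). The other 3, named after their values were seen, were ICOS (-0.69), CD5 (-0.58) and LAT (-0.39).

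Among 20 transcription factors and chemokine receptors of T cells, only LEF1, a factor of resting and early T cells, passed (log2 fold change -1.54, SE 0.385, edgeR adjusted p = 0.0226). Of 22 tested genes of cytotoxic and natural killer cells, none passed, 4 had an unadjusted p below 0.05 against 34.6% of all genes, and the lowest adjusted value was that of NCR3, a natural killer receptor (log2 fold change -1.04, edgeR adjusted p = 0.0518). NCR3 was called with DESeq2's size factors in edgeR (adjusted p = 0.0496) and in the DESeq2 Wald test (adjusted p = 0.0220). Of 17 tested partners of intraepithelial lymphocytes, such as ligands and cytokines, 15 had positive values with a median log2 fold change of 0.36. MR1, which presents vitamin metabolites to mucosal T cells, was the only one past the threshold, averaging 10.3 ± 5.07 CPM in GLP-2 injected and 5.04 ± 2.72 CPM in BSA steers (SD, log2 fold change 1.05, SE 0.317, edgeR adjusted p = 0.0347). With casein, 0 of the 89 genes passed and 3 had an unadjusted p below 0.05, against 3.36% of all genes.

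The calls on the wider lists also moved with the 4 follicle-rich steers. Without them, 0 of the 89 genes passed, as did 0% of all genes, and CD27, SIT1, LEF1 and MR1 had log2 fold changes of -0.58, -0.61, -0.40 and 0.68. The DESeq2 Wald test called 13 of 86 genes, or 15.1% against 22.4% of all genes. With DESeq2's size factors, edgeR called 9 of 89, or 10.1%, in a fit that called 1937 genes in all, against 1881 in the main fit. The fit with the replicate block called 3 (CD27, SIT1 and CD5), or 3.37% against 4.95% of all genes. LEF1 and MR1 were among those lost there, at -1.16 and 1.14 (edgeR adjusted p = 0.0719 and 0.0505), and LEF1 turned sign, to 0.025, with the follicle score as a term. Among lists of other cells, 3 of 6 plasma cell genes, POU2AF1 and DERL3 among them, and CORO1A of the 4 pan-leukocyte genes were lower with GLP-2, MRC1 of 10 tested macrophage and dendritic cell genes was higher, and none of 4 mast cell and 8 smooth muscle genes passed. CORO1A and MRC1 were not called with the replicate block (edgeR adjusted p = 0.0719 and 0.0509). Without the 4 steers none of these genes was called, with log2 fold changes of -1.65 for POU2AF1, -0.94 for DERL3, -0.24 for CORO1A and 0.51 for MRC1.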

How the data were processed

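Jejunal mucosa RNA-seq of 22 steers was used, and a further GLP-2 steer described in the study was not analysed here. The authors trimmed reads with fastp, aligned them to ARS-UCD1.2 with HISAT2 2.0.5 and deposited raw read counts per gene from featureCounts 1.5.0-p3. They also deposited FPKM values, computed per gene length and library size, which were used here for levels between genes and as an alternative. Libraries were strand-specific, and the strand setting of the counting is not given in the sources used here. Library totals had a median of 12028560.5 counts. The members, lists, ratios and tests were chosen with earlier results of these data known.

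Counts were filtered with filterByExpr (minimum count 10), scaled by TMM and tested with edgeR 4.0.16 (quasi-likelihood test, R 4.3.3) over all genes with Benjamini-Hochberg adjustment, at thresholds of 0.05 and, for a tendency, 0.1. Pooled injections (GLP-2 or BSA) and pooled infusions (casein or water) were each compared in a model of their own, and the 4 treatments in a further model. CPM were scaled by TMM, and a prior count of 2 was added for log2 CPM. Ratios and correlations were tested by permutation (Python 3.11.15, numpy 2.4.6, scipy 1.17.1). Alternatives were DESeq2 1.42.0, limma 3.58.1 on log2(FPKM + 1) and log2(FPKM + 0.1), other scalings and filters, covariates, a gene length correction, the replicate block and leaving out each steer. No pair of libraries was identical. The edgeR procedure was checked on simulated data.

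Named genes beyond the 10 are, for each list, the 2 with the smallest p among those past the threshold or, where none passed, the 2 with the smallest p, besides the 3 genes most correlated with CD3E, ITGAE, GZMB and KLRK1. The lists held 100 wider T cell genes, of which 92 were matched to an identifier and 89 tested. Replicate numbers are the body weight blocks of the labels. After treatment means were removed, the correlation averaged 0.0331 over 30 pairs of steers that shared a block and -0.00641 over 151 pairs that did not, and the main models hold no block.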

Additional observations from a re-analysis of the deposited data

How the results depend on the processing

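Over the alternatives run, none of the 10 genes was called between GLP-2 and BSA, except that leaving out each steer in turn gave 0 to 1 genes (GZMB, without control replicate 2), and between casein and water 0 were called under each. Log2 ratios past the threshold numbered 2, 2 to 3 when each steer was left out, 2 with block means removed (replicate block), and 0 with the follicle score, the enterocyte score or without the 4 follicle-rich steers. ITGAE to CD3E stayed between 0.61 and 0.82 and GZMB to CD3E between 1.17 and 1.62 when each steer was left out. The ratios, which set genes of unlike length against each other, were not repeated with the gene length correction. With that correction the log2 fold change with GLP-2 was 0.27 for ITGAE and 0.69 for GZMB. Of the 89 wider genes, 7 were called, 13 with DESeq2, 9 with DESeq2's size factors in edgeR, 3 with the replicate block, and 0 with the follicle score or without the 4 steers. The fit with the follicle score and the fit without the 4 steers each called 0 of all tested genes. The cause of these changes was not tested.

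The values below turned sign, each with an adjusted p above 0.05 under the alternative. Most had been near 0, but LEF1 (-1.54, called), GZMB (0.68), HDC (0.61), ITGAE (0.40) and the ratios to CD3E of KLRK1 (0.67), CD8A (0.36) and CD3D (0.32) with GLP-2 had not. Between GLP-2 and BSA, CD3D was at 0.11 with the replicate block, 0.10 with the block and gene length, and 0.14 and 0.15 in limma on FPKM with pseudocounts of 1 and 0.1, and CD3G at 0.0077 with the block and gene length. CD8A was at -0.016 with upper quartile scaling and -0.0090 with gene length. With the follicle score as a term, CD8A was at -0.43, ITGAE -0.16, PRF1 -0.37, GZMB -0.046, KLRK1 -0.42, HDC, a mast cell gene, -0.29 and LEF1 0.025. Without the 4 steers, CD8A was at -0.19, PRF1 -0.10 and KLRK1 -0.18. Between casein and water, CD3D was at 0.00028 with DESeq2's size factors, 0.0015 with upper quartile scaling, 0.046 with gene length, 0.0031 with GLP-2 as a term and 0.00037 in DESeq2, and CD3G at -0.0033 with the follicle score. CD8B was at 0.046 with gene length, 0.021 with GLP-2 as a term, 0.035 and 0.037 in limma and 0.047 without the 4 steers, PRF1 at 0.066 and 0.081 in limma, and CD3E at 0.031 without the 4 steers. Among ratios with GLP-2, CD8A to CD3E was at -0.040 with the follicle score, CD4 to CD8A at 0.99 with it, 0.90 with the enterocyte score and 0.47 without the 4 steers, and KLRK1, CD3D and CD3G to CD3E at -0.14, -0.0095 and -0.037 with the enterocyte score. With casein, PRF1 to CD3E was at -0.049 with the follicle score and -0.11 without the 4 steers, and CD3D to CD3E at -0.0030 with the block, -0.035 with the follicle score, -0.031 with the enterocyte score and -0.066 without the 4 steers. 

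When each steer was left out, the ranges that crossed 0 with GLP-2 were -0.12 to 0.16 for CD3D, -0.23 to 0.043 for CD3G, -0.077 to 0.19 for CD8A, -0.10 to 0.21 for KLRK1 and -0.24 to 0.16 for CD4 to CD8A. With casein they were -0.093 to 0.18 for CD3D, -0.14 to 0.083 for CD3E, -0.063 to 0.19 for CD3G, -0.10 to 0.15 for CD8B, -0.13 to 0.20 for PRF1 and -0.43 to 0.092 for GZMB, and for the ratios to CD3E -0.058 to 0.11 for CD3D, -0.52 to 0.0095 for GZMB and -0.047 to 0.20 for PRF1.

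The lowest counts of KLRK1 and GZMB in a library, 31 and 49, were in control replicate 5, whose total of 11490049 was close to the median of 12028560.5, while the library with the lowest total, casein + GLP-2 replicate 6, held 207 and 429.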
